A study of Rattus norvegicus with 241 samples.

Results

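Pericytes are mural cells that sit in the wall of capillaries and venules, inside the basement membrane they share with the endothelium. They are recruited by endothelial PDGFB acting on their receptor PDGFRB, hold their position through NOTCH3 and angiopoietin signaling, and regulate capillary tone through potassium channels and a modest set of contractile proteins. TGFβ made by endothelium and mural cells is a classical inducer of the contractile program and of matrix synthesis in this lineage. The cells described here are the pericytes of unsorted whole mammary glands, selected on the UMIs (unique molecular identifiers, one per captured RNA molecule) of RGS5, PDGFRB and NOTCH3 in each cell. A cell was kept with at least 2 UMIs summed over these 3 genes and at least 1 of RGS5, a regulator of G protein signaling. It could hold at most 1 UMI over the smooth muscle genes MYH11 and CNN1, and at most 1 over KRT14, KRT5 and PTPRC. PECAM1, the remaining gene of the selection rule, was not analysed here, so the rule could be applied only without it, and no endothelial gene took part in the selection. In all, 4206 of 103524 cells were selected, 2310 from vehicle and 1896 from TGFBRi-treated rats.

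The rats were outbred SD (Sprague Dawley) virgin females, treated around puberty. TGFBRi-treated rats received LY2157299 (galunisertib), an inhibitor of the kinase of the type I TGFβ receptor TGFBR1, by oral gavage at 75 mg/kg in 2 doses a day for 10 days, and vehicle rats received the carrier alone on the same schedule. Glands were taken at day 0, the end of treatment, from 3 vehicle rats (numbered 1, 2 and 4) and 6 TGFBRi rats (1, 2, 4, 6, 11 and 14), with 1 library per rat. The rats are the replicates, and both groups are intact animals with no transgene. The inhibitor was given systemically, so an effect on pericytes themselves and one through other cells cannot be told apart.

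The 9 libraries held 7900 to 16424 cells and 43110875 to 92699378 UMIs each, with a median of 2820 to 3885 UMIs per cell. Vehicle rat 4 stood apart from the other vehicle rats in several pericyte values given below, and the values that move most without it are given both ways. Of 97157 different cell barcodes, 6127 occurred in more than 1 library, and any pair of libraries shared 88 to 284.

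Pericyte numbers differed widely among vehicle rats. They made up 2.90%, 4.99% and 10.2% of all cells in vehicle rats 1, 2 and 4, and 1.53% to 4.32% in TGFBRi rats. The highest value was that of vehicle rat 4, and vehicle rat 1 lay inside the range of the TGFBRi rats. The mean share was 6.04% ± 3.77 (SD, n = 3) in vehicle and 2.88% ± 1.13 (SD, n = 6) in TGFBRi-treated glands (exact permutation test over rats, two-sided, p = 0.119, adjusted p = 0.40 over 6 such tests). With 3 against 6 rats there are 84 splits, and the smallest p this design allows is 0.0238. Set against endothelial cells of the same gland, there were 104.05 ± 34.7 pericytes per 100 endothelial cells in vehicle and 79.3 ± 16.1 in TGFBRi rats (SD, exact permutation p = 0.214). The endothelial cells were selected without RGS5 UMIs, so cells with both kinds of UMIs counted only as pericytes. Counting only pericytes without UMIs of other cell types (defined below), there were 27.2 to 80.9 in vehicle and 24.2 to 44.3 in TGFBRi rats (exact permutation p = 0.381). Of the mural cells counted here, pericytes were 83.2% ± 4.25 in vehicle and 79.4% ± 5.03 in TGFBRi rats (SD, exact permutation p = 0.286). The rest were contractile mural cells, selected by the same rule but with 2 or more MYH11 and CNN1 UMIs. They too needed at least 1 RGS5 UMI, so smooth muscle cells without one were not counted. With cells thinned to 1000 UMIs the pericyte share was 92.8% to 96.4% in vehicle and 87.4% to 97.5% in TGFBRi rats. Without vehicle rat 4 the differences, TGFBRi minus vehicle, went from -3.15 to -1.06 percentage points for the share of cells, from -24.8 to -8.09 for the number per 100 endothelial cells and from -3.77 to -6.22 percentage points for the share of mural cells. None of these 3 measures passed its test. The median pericyte held 5244 ± 983 UMIs in vehicle and 5575 ± 854 in TGFBRi rats (SD; exact permutation p = 0.690), and the mitochondrial share of UMIs was 3.83% ± 0.851 and 4.22% ± 0.331 (SD; exact permutation p = 0.333). Without vehicle rat 4 the difference in median UMIs, TGFBRi minus vehicle, turned from 331 to -181 (exact permutation p = 0.714). That in the mitochondrial share went from 0.394 to 0.884 percentage points (exact permutation p = 0.0714, the smallest p that the remaining rats allow). Vehicle rats 1 and 2 (3.30% and 3.38%) lay below all TGFBRi rats (3.75% to 4.70%).

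**Figure D1:**
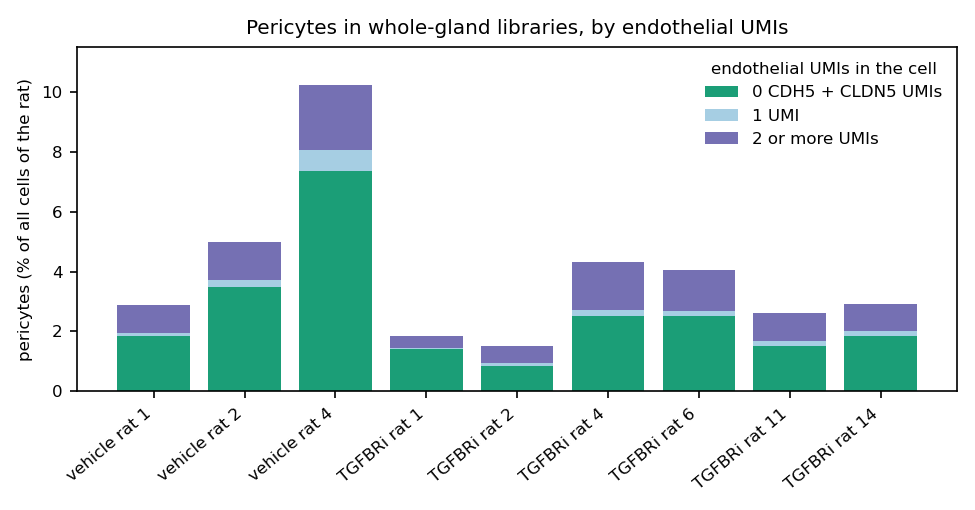
Pericytes as a percentage of all cells in each of the 9 rats, each bar stacked by the number of UMIs of the endothelial genes CDH5 and CLDN5 in the cell. Vehicle rat 4 had the highest share (10.2%), and cells with 2 or more endothelial UMIs made up 21.2% to 38.0% of the pericytes of each rat.

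RGS5 was present in all of them by construction, 1263 cells had UMIs of 1 of the 3 genes, 1588 of 2 and 1355 of all 3. Exactly 2 marker UMIs were found in 524 cells (12.5%), and 1060 cells with exactly 1 were left out. On the smooth muscle side, 710 cells held the 1 UMI allowed and 295 cells with 2 were left out. For KRT14, KRT5 and PTPRC, 166 cells held the 1 UMI allowed and 45 with 2 were left out. These counts describe the selection and test nothing.

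The label was checked against genes that took no part in the rule, beside fibroblasts (selected on PDGFRA, DCN and LUM) and endothelial cells (selected on CDH5 and CLDN5), both without RGS5 UMIs. KCNJ8 and ABCC9, the subunits of the ATP-sensitive potassium channel of pericytes, were detected in a median over rats of 42.1% and 48.3% of the selected cells, against 18.1% and 26.8% of fibroblasts and 0.913% and 1.14% of endothelial cells. NDUFA4L2, a mitochondrial protein enriched in mural cells, was detected in 48.01%, 3.52% and 0.799% of the 3 cell types, and HIGD1B, a hypoxia-inducible family member also enriched in mural cells, in 36.4%, 6.81% and 0.799%. The endothelial cells had been selected to hold no RGS5 UMI, which can lower their shares, and free RNA was not measured. Fibroblasts were the deeper cells (medians of 8022 to 11275 UMIs per cell against 4221 to 6963). In contractile mural cells the shares were 28.2% for KCNJ8, 50% for ABCC9, 46.5% for NDUFA4L2 and 36.1% for HIGD1B. Vitronectin (VTN) had a mean level of 582 ± 178 CPM (counts scaled to the same total in each rat) in the selected cells (SD, n = 9) against 5.21 ± 2.81 in fibroblasts and 3.38 ± 1.88 in endothelial cells.

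The selected cells were not a pure population. Of the 4206, 2772 (65.9%) had no UMI of the endothelial genes CDH5 and CLDN5, 222 had 1 and 1212 (28.8%) had 2 or more. Cells with 2 or more were 21.2% to 32.4% of the pericytes of vehicle rats and 22.01% to 38.0% in TGFBRi rats. They were deeper (medians of 8477 to 12168 UMIs per cell against 3436 to 4926 in cells with none). In UMIs summed per rat, which all fits used, they therefore weighed more than in cells. They held 2560221 of the 6969732 UMIs in vehicle rat 4, the lowest share, and 1419332 of 2442695 in TGFBRi rat 11, the highest. All 11 endothelial markers measured had UMIs in the selected cells, with summed levels of 2433 to 2701 CPM in vehicle and 2603 to 4439 in TGFBRi rats, and 6248 to 7738 in endothelial cells. All 12 epithelial markers had UMIs too, at 909.6 to 3345 in vehicle and 519.5 to 2018 in TGFBRi rats, as did all 11 leukocyte markers, at 312 to 398 and 97.3 to 332. For this reason the main results are also given for the 2017 selected cells (47.96%) that had no UMI of CDH5, CLDN5, PDGFRA, EPCAM, KRT8, KRT18 or CD74, called cells without other-type UMIs below. In those cells the summed epithelial level was 20.3 to 47.3 CPM in vehicle and 14.8 to 33.9 in TGFBRi rats, and the endothelial level 237 to 651 and 431 to 750. Part of that fall was set by the choice of cells, since CDH5, CLDN5, EPCAM, KRT8 and KRT18 are members of these lists and CD74 is a leukocyte marker. The choice did not lower all markers. The summed fibroblast level was 1468 to 3806 CPM in vehicle and 1941 to 3058 in TGFBRi rats over all selected cells and 1776 to 3872 and 2242 to 4080 in cells without other-type UMIs, and it was higher there in 5 of 9 rats. The summed Schwann cell level was higher there in 8 of 9 rats, and in TGFBRi rat 6 it went from 1436 to 4115 CPM. Whether the mixed cells are doublets was not tested, and no doublet caller was run.

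**Figure D2:**
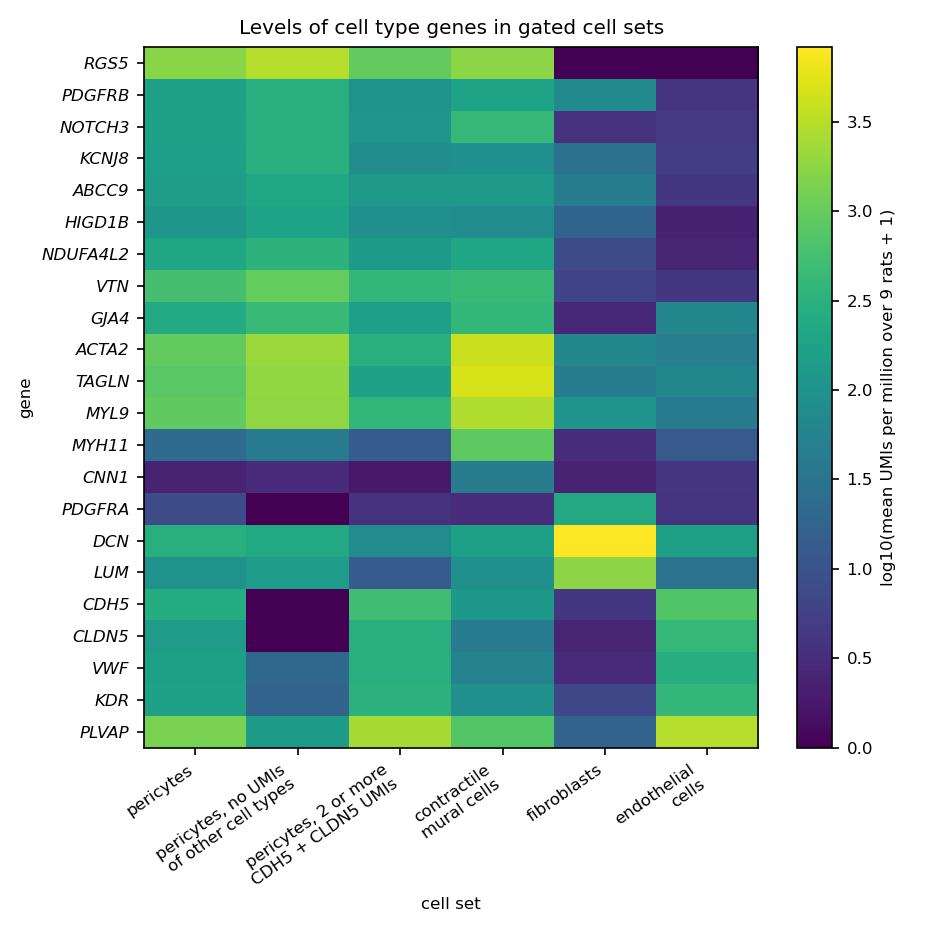
Mean level over 9 rats of 22 cell type genes in 6 sets of cells, as log10 of CPM plus 1 (color). Pericyte genes such as KCNJ8, NDUFA4L2 and VTN are brighter in pericytes and contractile mural cells than in fibroblasts and endothelial cells. KCNJ8 was at 163 CPM in pericytes and 28.0 in fibroblasts. CDH5 (263 CPM) and PLVAP (1362) are bright in the set of all pericytes too. They are brighter in the pericytes with 2 or more endothelial UMIs (521 and 2516).

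Against contractile mural cells of the same rats, pericytes had less of the contractile apparatus and more of the potassium channel gene KCNJ8. This contrast is a description, since the 2 sets were split on MYH11 and CNN1 UMIs of the same cells. It called 2071 of 14075 genes higher (14.7% of genes tested) and 1336 lower (9.49%) in pericytes (edgeR quasi-likelihood test on UMIs summed per rat, rat as a term, Benjamini-Hochberg adjusted p of 0.1 or less). Of 20 smooth muscle contractile genes, 19 were lower and 1 was higher in pericytes, the lower ones including TAGLN (log2 difference -2.55), ACTA2 (-2.07) and LMOD1 (-2.43), which nucleates actin filaments of smooth muscle. The list's median was -1.93 against 0.09 over all genes. KCNJ8 (0.83), HIGD1B and VTN were higher in pericytes, although 11 of 23 other pericyte genes were lower and 5 higher. ABCC9, the other channel gene, was at 156 ± 31.4 CPM in pericytes and 125 ± 25.5 in contractile cells (SD, n = 9). CSPG4 was at 19.8 ± 8.13 and 31.8 ± 13.4, and GJA4 at 250 ± 82.3 and 389 ± 72.7. The largest positive differences included MMRN1, a lymphatic endothelial gene. It had 898 UMIs in the selected cells, 0 in contractile cells and 9 in the selected cells without other-type UMIs. PROX1, also among them, had 590, 29 and 30 UMIs in the same sets. The milk genes GLYCAM1 and CSN1S1 were among them too (log2 2.90 and 2.53). Against fibroblasts, 4432 of 15347 genes were higher (28.9%) and 5039 lower (32.8%) in pericytes. Other pericyte genes were higher for 19 of 23, while all 25 interstitial matrix genes were lower, with medians of 2.81 and -3.73 against -0.05 over all genes. DCN and LUM are among these 25 and were used to select the fibroblasts, so their direction was set by the selection, and the whole contrast is a description. Its largest positive differences included the endothelial genes MMRN1, CD300LG and ESAM (log2 7.94, 7.50 and 6.65) beside the pericyte genes GJA4 and VTN (6.77 and 6.70). The part of endothelial RNA in both contrasts was not tested. Of 19 basement membrane genes, 6 were higher and 13 lower, with a median of -0.87. COL4A1 and COL4A2, chains of the collagen IV sheet, were among the higher ones (log2 1.13 and 1.11), and NID1, which links collagen IV to laminin, and LAMA2, a laminin chain gene, were among the lower ones (-1.48 and -2.44).

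Many genes differed between TGFBRi-treated and vehicle rats in the selected cells. The part of RNA from other cell types in these differences was not tested. Of 13722 genes tested, 1559 were higher (11.4%) and 1917 lower (14.0%) in TGFBRi-treated rats (edgeR quasi-likelihood test on UMIs summed per rat, adjusted p of 0.1 or less). In cells without other-type UMIs, 760 of 11284 genes were higher (6.74%) and 1189 lower (10.5%). Of the 3476 and 1949 genes called, 1646 were called in both (47.4% and 84.5% of each), all in the same direction; the second set of cells lies within the first. Scaling moved the balance of the calls. With scaling by total UMIs instead of TMM (the trimmed mean of M-values), the median gene shifted by 0.20 on the log2 scale, and 2611 genes were higher and 1142 lower. The share of higher genes among calls was 44.9% with TMM, 45.6% with DESeq2 and 69.6% with total UMIs. All fold changes below are TMM-scaled, and changes of 0.20 or less carry no direction. The number of calls was 2097 without vehicle rat 2, 5211 without vehicle rat 4 and 2722 to 3335 without any other single rat. It was 1191 with each cell thinned to 1000 UMIs. Without vehicle rat 4, 2453 of 13347 genes were higher and 2758 lower. In the 1212 cells with 2 or more CDH5 and CLDN5 UMIs, 1205 of 12280 genes were higher and 1858 lower. In the 2772 cells with none, 615 of 12674 were higher and 939 lower. Counts of list genes below are to be read against the counts over all genes in the same setting. For the main fit these were 11.4% higher and 14.0% lower.

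Values that did not overlap between the 3 vehicle and 6 TGFBRi rats were found for 2143 of 8479 genes with a mean of at least 20 UMIs per rat (25.3%), and 1983 of these were also called, 774 higher and 1209 lower. Vehicle rat 4 was the vehicle rat nearest to the TGFBRi rats for 672 of the 1209 lower genes and for 429 of the 774 higher ones. Below, values per rat are TMM-normalized CPM (UMIs scaled to the total of the rat's cells), fold changes are log2 with their standard error, and adjusted p-values are from edgeR over all genes tested.

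Of 25 ligands, receptors and SMADs tested, 5 were higher and 1 fell, and the list's median was 0.26 on the log2 scale, against 0.00 over all genes (11.4% and 14.0% of all genes were called). With total-UMI scaling 9 were higher and 1 was lower, without vehicle rat 4 the counts were 5 and 3, and in cells without other-type UMIs they were 3 and 1 of 24. INHBA, which encodes the βA subunit of activins, was the gene that fell. It was at 31.9, 73.6 and 20.1 in vehicle rats 1, 2 and 4 and at 2.27 to 7.12 (median 5.82) in TGFBRi rats. All TGFBRi rats lay below all vehicle rats (log2 fold change -3.01 ± 0.39, adjusted p = 0.00040), and the value in cells without other-type UMIs was -3.16 (adjusted p = 0.00018). TGFB3, encoding the third TGFβ ligand, was at 10.5, 4.48 and 10.3 and at 14.9 to 19.98 (median 16.7), again without overlap (log2 fold change 1.01 ± 0.26, adjusted p = 0.017). TGFB1 and the receptor gene TGFBR1, whose product the inhibitor binds, were not called (log2 0.26 ± 0.16 and -0.35 ± 0.23). TGFBR3, encoding the co-receptor betaglycan, was at 54.5, 49.98 and 68.1 in vehicle and 109.9 to 138 (median 123) in TGFBRi rats (log2 fold change 1.10 ± 0.15, adjusted p = 0.00048). Its value in cells without other-type UMIs was 0.51 (adjusted p = 0.12). The type II receptor gene TGFBR2 was higher in all selected cells (log2 0.47 ± 0.15) and at -0.11 (adjusted p = 0.81) without other-type UMIs. SMAD1, a transducer of BMP signals, was higher in both sets of cells (log2 0.56 and 1.15).

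Feedback and target genes of TGFβ did not move as one group. Of 11 feedback genes, 2 were higher, the inhibitory SMAD gene SMAD6 at 0.236 to 3.56 CPM in all rats and SKI (log2 0.69 ± 0.26), and none was called in cells without other-type UMIs. SMAD7, the inhibitory SMAD gene induced by TGFβ, had overlapping values (log2 0.37 ± 0.20). Of 24 target genes, 4 were higher and 4 lower, with a median of -0.16. With total-UMI scaling 6 were higher and 3 lower, with a median of 0.03. Without vehicle rat 4 the counts were 8 and 5, against 2453 and 2758 of 13347 over all genes. PLAUR, encoding the urokinase receptor, was at 982, 819 and 723 and 349 to 536 (median 459) and fell without overlap (log2 fold change -0.89 ± 0.14, adjusted p = 0.0015), as did TIMP1, an inhibitor of matrix metalloproteases (log2 -0.72 ± 0.19). SNAI1, a transcriptional repressor, was higher (log2 1.16 ± 0.30). The matricellular target CCN2 was at 59.4, 14.1 and 50.1 and at 13.4 to 73.7 (median 23.4), with wide overlap. None of the 4 ID genes, targets of BMP signals, was called, and ID3 and ID1 had log2 fold changes of -0.10 ± 0.24 and 0.04 ± 0.24.

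Of 25 interstitial matrix and crosslinking genes, none was higher and 2 were lower (6 higher and 2 lower without vehicle rat 4, 1 higher and none lower with total-UMI scaling), COL5A3 (log2 -0.74 ± 0.24) and THBS2 (-0.82 ± 0.32). COL1A1 was at 851, 1759.6 and 2995 in vehicle rats 1, 2 and 4 and at 1242 to 2039.6 (median 1445) in TGFBRi rats, with TGFBRi values inside the vehicle range (log2 -0.31 ± 0.29). COL3A1 and fibronectin (FN1) were likewise not called. Of 19 basement membrane genes, AGRN was higher and LAMC1 lower (4 higher and 1 lower without vehicle rat 4, 3 higher and none lower with total-UMI scaling). COL4A1 was at 2314, 3399.8 and 3959.6 and 2143 to 3025 (median 2818) (log2 -0.28 ± 0.17). Of 17 proteases and inhibitors, 3 were higher, among them the protease gene ADAMTS1, and 4 were lower, among them MMP3. With total-UMI scaling 4 were higher and 2 lower, and MMP3 and PLAU were not called. MMP3 was at 31.6, 34.2 and 5.48 in vehicle rats and at 0 to 21.1 in TGFBRi rats, and 1 TGFBRi rat lay above vehicle rat 4. Of 16 integrin and adhesion genes, 2 were higher and 2 lower (3 higher and none lower with total-UMI scaling), and of 12 IGF axis genes none was called (4 were higher without vehicle rat 4 and 2 with total-UMI scaling), with IGFBP7 at -0.24 ± 0.19 and IGFBP4 at 0.19 ± 0.20.

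Genes of the contractile apparatus were higher where they changed. Of 19 contractile genes tested, 5 were higher and none lower, with a median of 0.21, and in cells without other-type UMIs 5 of 18 were higher, with a median of 0.46. Without vehicle rat 4, 10 of 18 were higher and none lower, against 2453 higher and 2758 lower of 13347 over all genes. The rule capped MYH11 and CNN1, which are not in this list but share cells with its genes. ACTA2, encoding smooth muscle α-actin, was at 415, 712 and 759.8 in vehicle rats 1, 2 and 4 and at 664 to 1479 (median 1122) in TGFBRi rats. The lowest TGFBRi rat lay between the vehicle rats (log2 fold change 0.81 ± 0.24, adjusted p = 0.033), and without other-type UMIs the value was 1.04 (adjusted p = 0.0013). MYLK, the myosin light chain kinase gene, was at 39.1, 50.2 and 89.2 and at 91.5 to 127 (median 111), just without overlap (log2 fold change 0.87 ± 0.22, adjusted p = 0.018). LMOD1 was higher as well (log2 1.33 ± 0.37). TAGLN and MYL9, encoding transgelin and a myosin light chain, were not called (log2 -0.40 ± 0.31 and -0.06 ± 0.31).

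The count of other pericyte genes called depended on the scaling and on vehicle rat 4. Of 23 tested, 2 were higher and 1 lower with TMM, 10 were higher and 1 lower with total-UMI scaling, and 15 were higher and 1 lower without vehicle rat 4. Over all genes, 2611 of 13722 were higher and 1142 lower with total-UMI scaling. Without vehicle rat 4, 2453 of 13347 genes were higher and 2758 lower. EBF1, a transcription factor of mural cells, was higher at 98.4, 117 and 102.4 against 141 to 222 (median 178) (log2 fold change 0.76 ± 0.15, adjusted p = 0.0051), ADGRF5 was higher (log2 0.62 ± 0.13) and TBX18, a transcription factor that marks mural cells, was lower (-0.75 ± 0.23). The list's median was 0.29. In cells without other-type UMIs, 8 of 23 were higher and none lower, among them ANPEP (0.99) and the guanylate cyclase subunits GUCY1A1 (0.89) and GUCY1B1 (0.54), which bind nitric oxide. The genes of the selection rule had log2 fold changes of -0.23 ± 0.24 for RGS5, 0.60 ± 0.28 for PDGFRB and 0.30 ± 0.28 for NOTCH3, given without a test.

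Of 21 vascular tone genes, 7 were higher and 1 lower, with a median of 0.10. In cells without other-type UMIs 3 of 16 were higher and 1 lower, and without vehicle rat 4 the counts were 7 and 4 of 20. RGS16 and RGS3, which shorten G protein signals, were higher, RGS16 from 78.1, 79.9 and 126 to values of 173 to 228 (median 183) (log2 fold change 1.01 ± 0.18, adjusted p = 0.0023) and RGS3 by 1.20 ± 0.18. Without other-type UMIs their values were 0.99 (adjusted p = 0.037) and 0.73 (adjusted p = 0.16), so RGS3 was not called there, and GNAQ, ADRA2A, NPR3 and PLCB1, higher in all selected cells, were not called or not tested there. PDE3A, a phosphodiesterase of cyclic nucleotides, was at 97.7, 134 and 113 in vehicle rats 1, 2 and 4 and at 44.6 to 93.9 (median 56.8) in TGFBRi rats, all below vehicle (log2 fold change -0.94 ± 0.19, adjusted p = 0.0061). Of 29 crosstalk genes, 3 were higher and 2 lower with TMM, and 7 higher and 2 lower with total-UMI scaling. Without vehicle rat 4, 8 crosstalk genes were higher and 5 lower, against 2453 and 2758 of 13347 over all genes. Of 28 tested in cells without other-type UMIs, ANGPT2 was higher, and VEGFA, S1PR1 and EDNRB were lower. VEGFA, the endothelial growth factor, fell from 58.9, 58.2 and 69.7 to values of 32.6 to 48.9 (median 40.8) without overlap (log2 fold change -0.62 ± 0.17, adjusted p = 0.022), and EDNRB, an endothelin receptor gene, fell by 1.21 on the log2 scale with overlapping values. CXCL12 was higher in all selected cells (log2 1.35 ± 0.39) and at 0.34 (adjusted p = 0.52) without other-type UMIs. The endothelial genes TEK and NOTCH1 were higher in the selected cells (log2 0.68 and 0.47) and at 0.65 for KDR, while in cells with no CDH5 or CLDN5 UMI these 3 had values of -0.14, -0.06 and -0.62. Of 11 endothelial markers tested, 4 were higher, and of 8 in cells without other-type UMIs 1 was higher. The part of endothelial RNA in the results of this paragraph was not tested beyond these values.

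HMOX1, AKR1B8 and SLC7A11, which are named for the size of their change and belong to no gene list used here, are known as genes of the oxidative stress response. HMOX1, encoding the heme-degrading enzyme heme oxygenase 1, was at 13769, 12599.7 and 2434 in vehicle rats 1, 2 and 4 and at 649 to 1509 (median 1357) in TGFBRi rats. Vehicle rats 1 and 2 were the high ones, vehicle rat 4 was nearer to the TGFBRi rats, and the groups did not overlap (log2 fold change -2.99 ± 0.40, adjusted p = 0.00046). AKR1B8, an aldo-keto reductase gene, was at 2858, 3128 and 427 and at 63.99 to 82.3 (median 74.8), with the same order of the vehicle rats (log2 fold change -4.84 ± 0.42, adjusted p = 3.8e-05). SLC7A11, the cystine transporter gene, was at 168, 163 and 18.9 and at 6.15 to 16.7 (median 9.40) (log2 fold change -3.48 ± 0.50, adjusted p = 0.00067). In cells without other-type UMIs the values were -3.45, -4.64 and -3.24.

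**Figure D3:**
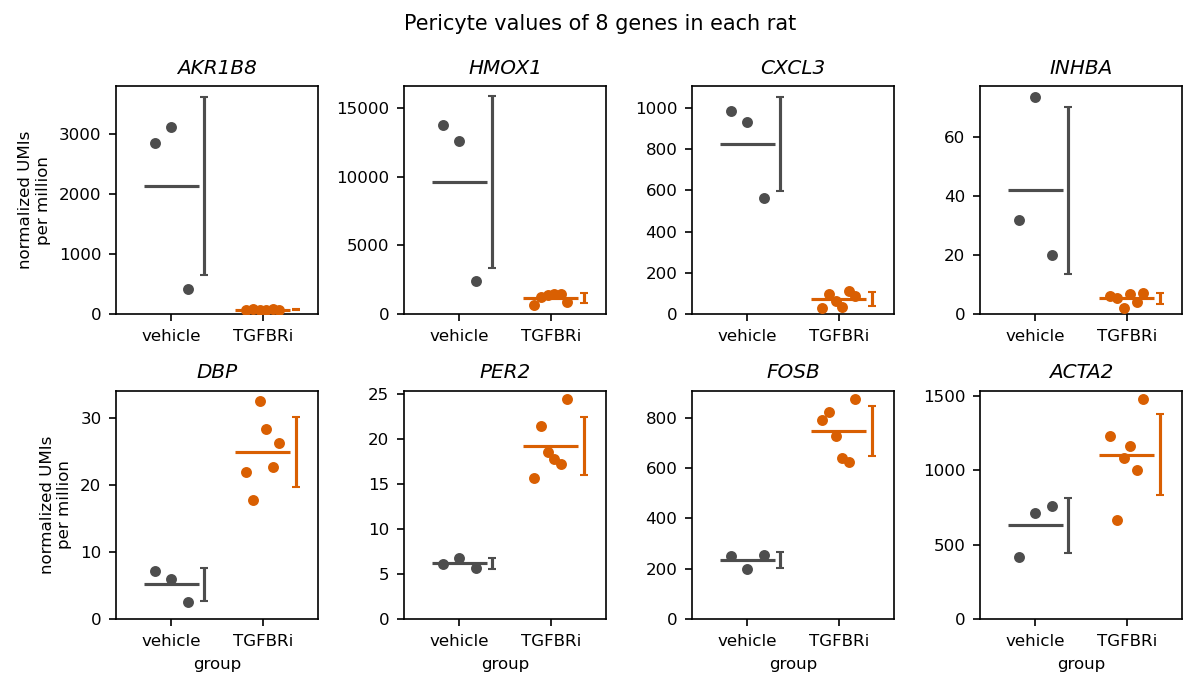
TMM-normalized CPM in pericytes of each rat for 8 genes (dots), with the group mean (horizontal line) and SD (bar beside the dots) for 3 vehicle and 6 TGFBRi rats. AKR1B8, HMOX1, CXCL3 and INHBA are lower and DBP, PER2 and FOSB higher in every TGFBRi rat than in any vehicle rat, with vehicle rat 4 the lowest vehicle rat in the first 4 genes, while ACTA2 values overlap.

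More chemokine and cytokine genes fell than rose. Of 22 chemokine, cytokine and NF-κB genes, 3 were higher and 10 lower, with a median of -0.54, and without other-type UMIs 2 were higher and 11 lower, with a median of -0.90. With total-UMI scaling 5 were higher and 8 lower, with a median of -0.36, and NFKBIZ and IL6 were not called. CXCL1, a ligand that attracts neutrophils, was at 14626, 25343 and 6136 in vehicle rats 1, 2 and 4 and at 3529.5 to 5942 (median 4161) in TGFBRi rats, all below vehicle (log2 fold change -1.80 ± 0.30, adjusted p = 0.0017). CXCL2 was at 3164, 2805 and 579 and at 342 to 684 (median 547), with vehicle rat 4 inside the TGFBRi range (log2 fold change -2.07 ± 0.38, adjusted p = 0.0029). The related genes CXCL3 and CXCL6, which are named by size and are not in the list, fell further. CXCL3 was at 984, 929.9 and 562 and at 30.3 to 112 (median 77.3) (log2 fold change -3.51 ± 0.34, adjusted p = 6.4e-05), and CXCL6 at 41.6, 122 and 71.4 and 0 to 7.30 (median 1.58) (log2 fold change -5.42 ± 0.48, adjusted p = 4.1e-05). CCL7, IL6 and CCL2 fell by 1.56, 0.91 and 1.25 on the log2 scale, the last 2 with overlapping values. LIF, a cytokine of the interleukin 6 family, fell by 2.60 with overlapping values, and IL11 of the same family, also named by size, fell by 3.12 without overlap. CXCL10, an interferon-induced chemokine, moved the other way, from 159, 269 and 207 to values of 393 to 792 (median 553) (log2 fold change 1.47 ± 0.23, adjusted p = 0.0011), in all 6 TGFBRi rats above all vehicle rats. EREG, an EGF receptor ligand, fell from 22.9, 60.6 and 4.15 to values of 0 to 2.69 (median 1.43) (log2 fold change -4.26 ± 0.69, adjusted p = 0.0015).

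The stretches just upstream of 4 of these chemokine genes are shown because 3 of the genes fell together and 1 rose. They are the 250 bases before the start of CXCL1, CXCL2, CXCL6 and CXCL10 from RefSeq (rat build GRCr8), at chr14:17479322-17479571, chr14:17467256-17467505 and chr14:17596418-17596667 on the minus strand and chr14:15988816-15989065 on the plus strand. Capitals mark matches to the NF-κB consensus, the site bound by the transcription factor downstream of inflammatory receptors, searched on both strands, so that a palindromic match counts on each.
CXCL1: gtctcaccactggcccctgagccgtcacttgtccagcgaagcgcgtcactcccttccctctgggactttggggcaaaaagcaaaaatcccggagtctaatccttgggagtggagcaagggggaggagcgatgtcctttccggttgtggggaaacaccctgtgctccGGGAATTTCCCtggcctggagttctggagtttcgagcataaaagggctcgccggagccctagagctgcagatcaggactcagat
CXCL2: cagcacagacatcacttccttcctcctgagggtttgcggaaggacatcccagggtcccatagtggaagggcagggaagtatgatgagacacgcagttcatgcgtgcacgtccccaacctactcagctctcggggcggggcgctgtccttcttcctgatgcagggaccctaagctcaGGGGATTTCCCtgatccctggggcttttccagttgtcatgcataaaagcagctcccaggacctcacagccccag
CXCL6: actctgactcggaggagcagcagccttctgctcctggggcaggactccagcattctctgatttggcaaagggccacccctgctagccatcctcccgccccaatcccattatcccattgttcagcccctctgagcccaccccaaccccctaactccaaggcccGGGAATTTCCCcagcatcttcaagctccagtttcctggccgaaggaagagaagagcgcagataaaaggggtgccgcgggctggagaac
CXCL10: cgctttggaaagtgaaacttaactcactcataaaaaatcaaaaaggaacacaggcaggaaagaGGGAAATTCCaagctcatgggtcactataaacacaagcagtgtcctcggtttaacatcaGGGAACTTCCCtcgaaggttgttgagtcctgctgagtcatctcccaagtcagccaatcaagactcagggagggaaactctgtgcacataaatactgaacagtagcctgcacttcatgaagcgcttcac
The genes that fell have matches 73 to 88 bases before the start, and CXCL10 has matches 127 to 187 bases before it. Of all 33469 stretches of this length, 2117 (6.33%) hold a match. Of the 22 list genes, 17 were in the RefSeq table and 10 of them hold a match, 5 of 8 that were lower, 2 of 3 that were higher and 3 of 6 that were not called. The list names NF-κB genes by design, so an excess of matches over all stretches can follow from that choice. A match is a description of the letters and no record of binding.

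The counts of heat shock and hypoxia genes called depended on the scaling and on vehicle rat 4. Of 11 heat shock genes, 5 were lower and none higher, with a median of -0.29. With total-UMI scaling 3 were lower and none higher, with a median of -0.09, and without vehicle rat 4 the balance was 4 higher and 3 lower. HSPD1, a mitochondrial chaperonin gene, fell from 345, 328 and 610.2 to values of 164 to 232 (median 199.8) without overlap (log2 fold change -1.10 ± 0.19, adjusted p = 0.0021). HSPB1, a small heat shock protein gene, was at 1016, 1172 and 5252 in vehicle rats 1, 2 and 4 and at 909 to 1308 (median 1124) in TGFBRi rats, and its log2 fold change of -1.15 ± 0.38 became 0.01 without vehicle rat 4. Of 14 hypoxia and glycolysis genes, 6 were lower and 1 higher with TMM, 3 lower and 2 higher with total-UMI scaling, and 8 lower and 2 higher without vehicle rat 4. Among cells without other-type UMIs 4 were lower and none higher. ADM, encoding the vasodilator peptide adrenomedullin, was at 310.4, 206 and 129.8 and at 16.7 to 45.7 (median 32.8) (log2 fold change -2.67 ± 0.26, adjusted p = 7.4e-05), and HIF1A fell by 0.77 but was not called with total-UMI scaling.

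Immediate early and circadian genes were mostly higher where they changed. Of 21 immediate early genes, 9 were higher and 3 lower, with a median of 0.41. FOSB, an AP-1 subunit gene, was at 250.3, 199 and 253 in vehicle rats 1, 2 and 4 and at 625 to 873 (median 759) in TGFBRi rats (log2 fold change 1.67 ± 0.16, adjusted p = 6.0e-05). FOS, EGR1 and JUNB were also higher, by 1.02, 1.01 and 0.99, each without overlap. The AP-1 gene FOSL1 and the stress gene IER3 fell (log2 -1.51 and -1.17). Of 18 glucocorticoid and circadian genes, 11 were higher and 1 was lower, with a median of 0.68. DBP, an output gene of the circadian clock, rose from 7.196, 5.89 and 2.49 to values of 17.7 to 32.5 (median 24.5) (log2 fold change 2.33 ± 0.31, adjusted p = 0.00043), and the clock gene PER2 from 6.17, 6.84 and 5.65 to values of 15.6 to 24.5 (median 18.2) (log2 fold change 1.63 ± 0.21, adjusted p = 0.00034), while ARNTL, whose product drives both, fell by 1.35. Glucocorticoid-responsive ZBTB16 and FKBP5 were higher (log2 2.07 ± 0.42 and 0.64 ± 0.18), as was the metallothionein gene MT1 (1.65 ± 0.19).

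Interferon-stimulated genes rose in part. Of 17 tested, 6 were higher and none lower, with a median of 0.43, among them RTP4 (log2 1.27 ± 0.24) and IRF7 (0.88 ± 0.20). The count was 9 with total-UMI scaling and 4 in cells without other-type UMIs, where OAS1A and IFI27 were not called, and none was lower in either. OAS1K, of the oligoadenylate synthetase family, had the largest increase of the genes named by size, from 3.08, 5.89 and 4.65 to values of 13.1 to 41.7 (median 23.5) (log2 fold change 2.40 ± 0.33, adjusted p = 0.00052). The class I histocompatibility genes RT1-T24-3 and RT1-T24-4 rose by 2.23 ± 0.30 and 2.14 ± 0.35, and reads of this family can be split between near-identical copies.

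The rest of the genes named by size need the count behind them. CALCB, encoding a calcitonin gene-related peptide, had 54, 10 and 147 UMIs in pericytes of vehicle rats 1, 2 and 4 and 2 in those of all TGFBRi rats together, a ratio of 0.0104 (95% interval 0.00126 to 0.0382, counting error only). In cells without other-type UMIs CALCB had 4 UMIs in all, so nearly all its reads came from cells with UMIs of other types. NXPE1, TMEM44 and JAG2 did not reach 10 UMIs in cells without other-type UMIs and gave no second value. For G0S2, which rose by 2.03 ± 0.63 in all selected cells, the second value was 0.06 (adjusted p = 0.98). RBP7, a retinol-binding protein gene, rose from 319, 214 and 423 to values of 891 to 1817 (median 1464) (log2 fold change 2.12 ± 0.27, adjusted p = 0.00032) and had a value of 1.57 (adjusted p = 0.013) in cells without other-type UMIs, and SULT1A1, a sulfotransferase gene, rose by 1.98 ± 0.37 with a second value of 1.67 (adjusted p = 0.0052). DDIT4L and AABR07054319.1 fell too, with log2 fold changes of -3.86 ± 0.48 and -3.59 ± 0.31. CD300LG, an endothelial surface gene, rose by 2.17 ± 0.41 and was at 1.35 (adjusted p = 0.34) without other-type UMIs.

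Markers of other cells and cell cycle genes complete the lists. None of 19 S and G2/M phase genes was called, with log2 fold changes of 0.15 ± 0.31 for STMN1 and -0.25 ± 0.24 for HMGB2. The list's median was 0.28. With total-UMI scaling 4 were higher, among them AURKB and CDK1, 7 were higher without vehicle rat 4, and in cells without other-type UMIs CENPF was higher by a log2 value of 1.19 (adjusted p = 0.097). None was lower under these settings. None of 12 fibroblast markers was called, with COL1A1 at -0.31 ± 0.29 and DPT at -0.42 ± 0.26 and a median of -0.37. Of 11 epithelial markers, 5 were lower (median -1.17), and of 10 leukocyte markers 2 were lower. In cells without other-type UMIs, 1 of 6 epithelial and 2 of 8 leukocyte markers were lower. FABP4, shared by capillary endothelium and fat cells, held 95.3% of the UMIs of the 7 adipocyte markers. Their summed level was 3277 to 4262 CPM in vehicle and 5177 to 9144 in TGFBRi rats, and FABP4 was the 1 of 6 tested that was called (log2 0.81 ± 0.20). Of 8 Schwann cell markers 1 was lower, of 9 milk genes 1 was higher, and of 4 erythrocyte genes none was called. The part of these other cells in the results was not tested.

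**Figure D4:**
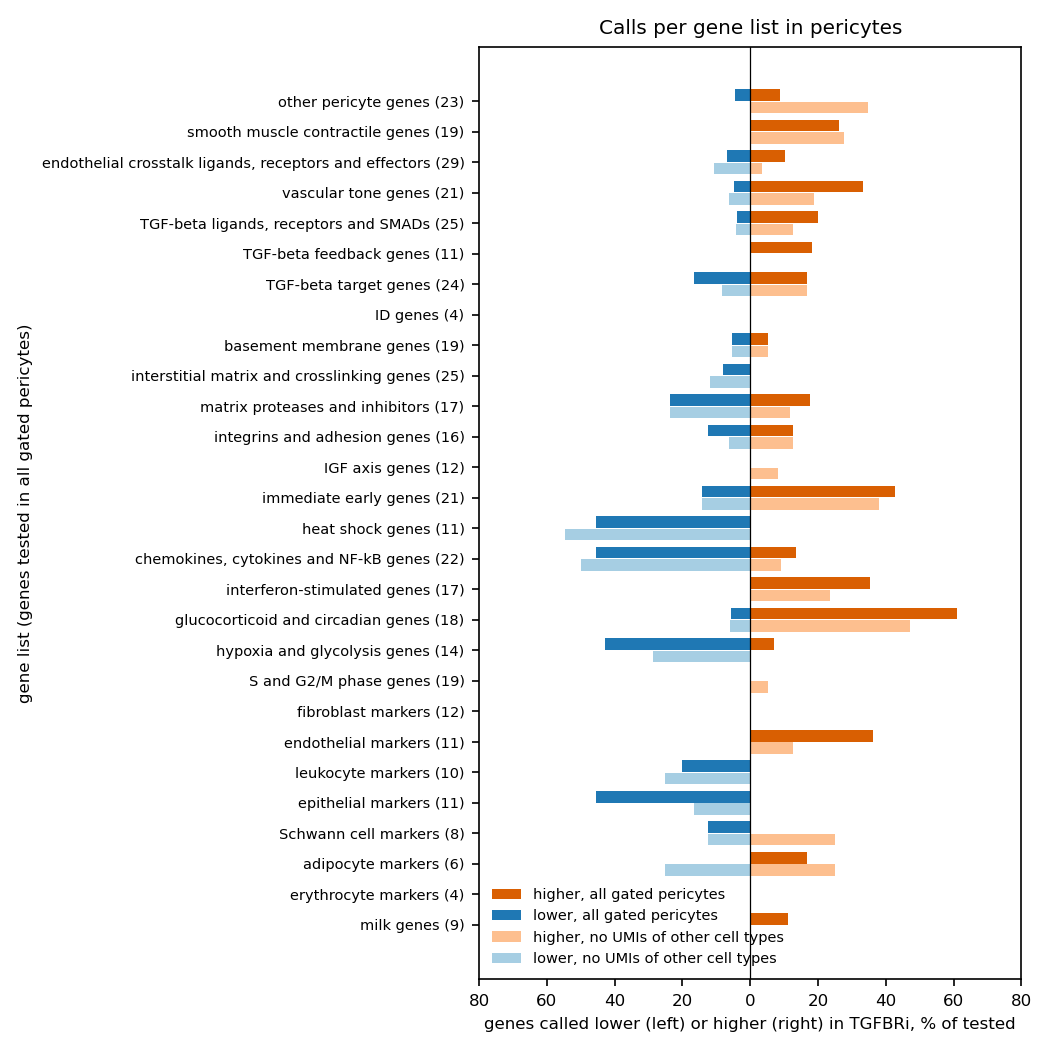
For each of 28 gene lists, the percentage of tested genes called lower (left) or higher (right) in TGFBRi-treated pericytes, for all selected cells (dark) and for cells without UMIs of other cell types (light). In all selected cells 10 of 22 chemokine and 5 of 11 heat shock genes were lower, and 11 of 18 glucocorticoid and circadian genes were higher. Over all genes tested in these cells, 11.4% were higher and 14.0% lower. The heat shock counts were 4 higher and 3 lower without vehicle rat 4, and none higher and 3 lower with total-UMI scaling.

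The same treatment contrast was run in neighboring cell types of the same rats, and all 3 contrasts share the rats. In contractile mural cells 828 of 11705 genes were higher (7.07%) and 983 lower (8.40%), and in fibroblasts 1821 of 14503 were higher (12.6%) and 2251 lower (15.5%). HMOX1 had log2 fold changes of -2.99 in pericytes, -3.07 in contractile cells and -2.81 in fibroblasts, and AKR1B8 of -4.84, -4.43 and -3.60. DBP rose by 2.33, 2.25 and 3.01. ACTA2 rose by 0.81 in pericytes and 0.86 in contractile cells, and had a log2 fold change of -0.91 in fibroblasts (adjusted p = 0.31), with no call for the difference (adjusted p = 0.14).

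Whether the TGFBRi effect differed between cell types was tested as an interaction. Against contractile cells, 1 of 14075 genes was called (0.00710%) and 529 had an unadjusted p under 0.05. The gene was AABR07034730.2, and 7523 of its UMIs in contractile cells came from TGFBRi rat 6, with 0 in every other rat, so the call rested on 1 library. Without a term for the rat, none was called, and 48 were called between cells without other-type UMIs. Against fibroblasts, 627 of 15347 genes were called (4.09%), 371 with a more positive and 256 with a more negative effect in pericytes. Without a term for the rat 0.704% were called, 61 more positive and 47 more negative. With pericytes without other-type UMIs, 279 of 14784 were more positive and 109 more negative. The 12 largest positive values of named genes included the endothelial markers KDR (2.33) and VWF (2.04). In pericytes without other-type UMIs the treatment effect on KDR was -0.34. The part of endothelial RNA in this contrast was not tested. CXCL6 fell further in pericytes (interaction log2 -2.67, adjusted p = 0.017). IL6 and IER3 fell further in fibroblasts, with interaction values of 1.23 (adjusted p = 0.028) and 1.46 (adjusted p = 0.00062). For SNAI1 the log2 fold change was 1.16 in pericytes and -0.09 in fibroblasts (interaction 1.32, adjusted p = 0.0089).

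**Figure D5:**
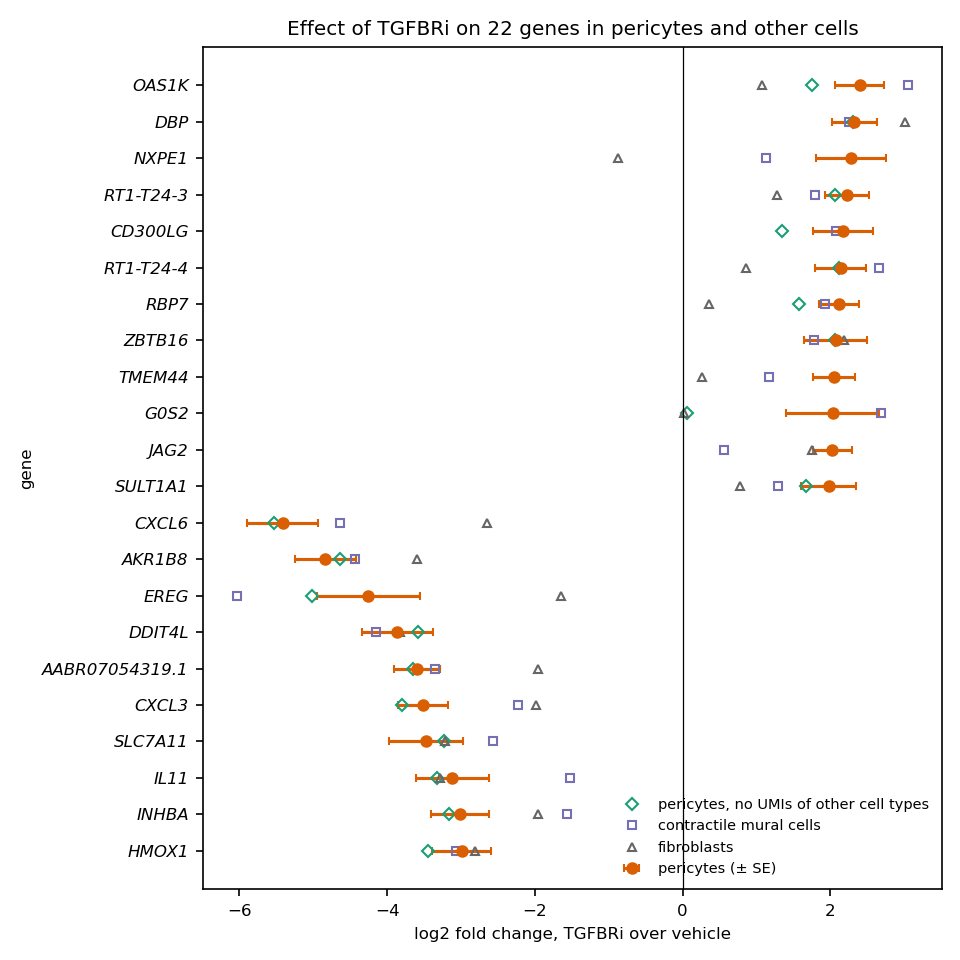
Log2 fold change (TGFBRi over vehicle) of 22 genes in pericytes (filled circles, ± SE), in pericytes without UMIs of other cell types, in contractile mural cells and in fibroblasts (open symbols), omitting values for genes that were not tested in a set. Fibroblast triangles lie nearer to 0 than pericyte circles for CXCL6 and OAS1K, and near them for HMOX1 and ZBTB16. The genes were chosen for the size of their change in pericytes, which favors larger values there.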

How the data were processed

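Whole mammary glands were profiled by 10x 5′ single-cell sequencing, 1 library per rat. The authors' deposited tables hold raw UMI counts per gene and cell, and per the submitters' processing notes they were made with Cell Ranger 7.0.0 on the rn6 build and Seurat 4.1.1. Cells had been filtered by the authors on genes detected and mitochondrial share, the methods name no doublet removal, and none was done here. Genes counted from near-identical copies may share reads, and free RNA was not subtracted.

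The pericyte rule was applied to each cell, with symbols matched ignoring case, and UMIs were summed per rat (Python 3.11.15, pandas 2.3.3, numpy 2.4.6). Genes with at least 10 UMIs over all rats were tested with edgeR 4.0.16 (quasi-likelihood, TMM, Benjamini-Hochberg adjusted p of 0.1 or less, R 4.3.3). Contrasts between cell types and their interactions had the rat as a term. Shares and depths were compared with exact permutation tests over rats (scipy 1.17.1, two-sided). The study's own test compared cells, whereas here rats are the replicates. DESeq2 1.42.0, other filters, a depth of 1000 UMIs per cell, leaving out each rat and stricter sets of cells were alternatives, some chosen after seeing the data (those on endothelial UMIs and on scaling without TMM; DESeq2 and leaving out rats for contractile cells and fibroblasts; leaving out rats for UMIs, genes and mitochondrial share per pericyte; and, outside the treatment contrast in pericytes, the sets without UMIs of other cell types).

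The members and gene lists were chosen with earlier results of these data known. Named genes were the 12 with the largest fold change in each direction among genes that were called, had a mean of at least 20 UMIs per rat and did not overlap between groups, together with called list members, the rule's genes, defining genes of other cell types and, for lists with no call, the 2 members with the most UMIs. Some genes that this rule names are not reported here. Of 446 list genes, 427 were in the tables. Intervals cover counting error only.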

Additional observations from a re-analysis of the deposited data

Results flagged for a closer look

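In 3 of 30 groups of 6 rats tested, 1 TGFBRi rat lay far from the other 5, where chance gives about 1 in 20. That rate does not hold for counts near 0. CALCB was at 0.504 normalized CPM in TGFBRi rat 4, which is 2 UMIs, and at 0 in the others, so that any count above 0 would have stood apart. CXCL6 was at 7.30 in TGFBRi rat 1 and at 0 to 2.30 in the others. AABR07054319.1, a gene with no name, was at 41.5 in TGFBRi rat 2 and at 24.4 to 30.2 in the others.

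The TGFBRi effect in pericytes differed from that in fibroblasts of the same rats for 8 of the 24 genes named by size (edgeR interaction test, adjusted p of 0.1 or less). Over all genes tested, 4.09% were called. The 24 genes were named for a large change in these same pericytes, which favors a larger effect there. All 8 differences had that direction, so it is a description of the choice. The difference, pericytes minus fibroblasts on the log2 scale, was 1.25 for OAS1K, 1.26 for RT1-T24-4, 1.81 for TMEM44 and 1.32 for SULT1A1. It was -2.67 for CXCL6, -0.93 for AKR1B8, -2.33 for EREG and -1.51 for AABR07054319.1. TMEM44 had too few UMIs for a value in the pericytes without UMIs of other cell types.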

How the results depend on the processing

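Of 2800 values of 134 named genes under the alternatives, 2344 kept their sign and their side of the threshold, 445 kept only the sign and 11 changed sign. Of these 11, 6 went to values within 0.20 of 0, which carry no direction. Sign and side were kept for 69 genes with the replicate number as a block and 75 without CDH5 or CLDN5 UMIs. They were kept for 84 when thinned, 88 without UMIs of other cell types and 94 to 127 with each rat left out. The 3476 genes called between TGFBRi and vehicle pericytes became 1949 without UMIs of other cell types, 1554 without CDH5 or CLDN5 UMIs and 1191 with cells thinned to 1000 UMIs. They were 3063 in only the cells with 2 or more CDH5 and CLDN5 UMIs, and 2097 to 5211 when each rat was left out. Rats 1, 2 and 4 occur in both groups. The deviations of same-numbered rats correlated by 0.007, -0.094 and 0.236 over 10101 genes, and those of differently numbered rats by -0.228 to 0.233. So few pairs cannot tell whether the numbers mark a pairing, and the main fit used none. The fit with the replicate number as a block, on those 6 rats only, called 974, and under that pairing the difference in the share of mural cells was 0.648. Each of these settings holds fewer cells, UMIs or rats, and the cause of the changes was not tested.

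In contractile cells the count was 1189 without UMIs of other cell types and 1125 to 2076 with each rat left out, and in fibroblasts 2525 to 5184. Pericytes against contractile cells gave 1605 without UMIs of other cell types, 1406 thinned and 2906 to 3435 with each rat left out. Against fibroblasts it was 5514 thinned and 9005 to 9292. The interaction with contractile cells gave 0 without the rat as a block, 48 without UMIs of other cell types and 0 to 6 with each rat left out. That with fibroblasts gave 0.704% of genes tested without the rat as a block (61 more positive, 47 more negative), 2.62% without UMIs of other cell types, 2.05% at an adjusted p of 0.05, and 1.43% (without vehicle rat 2) to 6.10% (without vehicle rat 4) with each rat left out. Leaving out each rat moved the share of cells from -4.72 to -1.06 percentage points (the latter without vehicle rat 4), pericytes per 100 endothelial cells from -42.8 to -8.09 (without vehicle rat 4), the share of mural cells from -6.22 to -2.45, median UMIs from -181 to 799 (-181 without vehicle rat 4), median genes from 51.6 to 284 and the mitochondrial share from 0.130 to 0.884.

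Changes of sign, as log2 fold changes, occurred without CDH5 or CLDN5 UMIs for TEK (-0.14), NOTCH1 (-0.061), NPR3 (-0.25), TGFBR2 (-0.070), VWF (-0.53) and KDR (-0.62). Without UMIs of other cell types these were TGFBR2 (-0.11), KDR (-0.34) and XDH (-0.11), when thinned NPR3 (-0.69), and the value of HSPB1, TGFBRi against vehicle in pericytes, was 0.0057 without vehicle rat 4 and -1.54 without vehicle rat 1.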
